A study of Mus musculus with 4 samples.

Results

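Cryab, Hspb1 and Hspb8 encode small heat shock proteins, and their RNA was measured in Erbb2-transfected NIH3T3 mouse fibroblasts relative to the same line without the transfection. The 3 genes were chosen by the measured log2 ratios of this same comparison, as members of a family that differed in direction, so their ratios are described below without a test. They are 3 of 9123 named genes in the rows that could be used, and 3 of 6327 genes with a value on all 4 arrays. They have 5 probes on the array, 2 each for Cryab and Hspb8 and 1 for Hspb1.

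NIH3T3 is a long-established fibroblast line from mouse embryos, and the labels describe its transfected version as overexpressing Erbb2. The cells it was set against were NIH3T3 cells with normal Erbb2 expression. The Erbb2 product is a receptor tyrosine kinase related to the epidermal growth factor receptor; its own ratio was not analysed here, so the labels were not checked by it. The sources used here do not name the vector or its promoter, nor whether the transfected line was a clone or a pool. RNA of both lines was hybridised together on 4 two-colour cDNA arrays, with the transfected sample in Cy5 on arrays 1 and 2 and in Cy3 on arrays 3 and 4. The arrays are technical replicates of 1 RNA sample per line, so every SD below is a spread between arrays, no p-value is given, and an effect of Erbb2 cannot be told apart from any other difference between the lines. A positive log2 ratio is read as higher in transfected cells; this direction is likely, but no label states it. All signs would turn together under the opposite reading. Because RNA of whole cultures was compared, fewer cells with a transcript and less transcript per cell cannot be told apart.

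Small heat shock proteins share the alpha-crystallin domain, assemble into oligomers and bind unfolding proteins without using ATP, holding them until HSP70 chaperones can refold them. Many are induced by heat shock factor, which binds heat shock elements built from inverted GAA and TTC units. Cryab (alpha-B-crystallin) is abundant in lens and striated muscle and binds intermediate filaments. Hspb1 (Hsp25 in mouse, HSP27 in human) is phosphorylated by the p38 MAP kinase pathway through MAPKAP kinase 2 and acts on actin filaments. Hspb8 works with the co-chaperone Bag3 to hand damaged proteins over to autophagy.

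Promoter windows are shown for the heat shock letters they hold, in a gene that was higher (Hspb1) and in a gene with no direction (Hspb8). Of the 3 members, Hspb1 and Hspb8 were matched by symbol, and Cryab was not. The windows are RefSeq promoter windows of 300 bases (build GRCm38.p6), which run from 250 bases before the gene's start to 50 after it. Both are on chromosome 5, Hspb1 at chr5:135887669-135887968 on the plus strand and Hspb8 at chr5:116422815-116423114 on the minus strand. They are printed 5′ to 3′, and capitals mark the heat shock core letters GAANNTTC, which read the same on both strands.
Hspb1: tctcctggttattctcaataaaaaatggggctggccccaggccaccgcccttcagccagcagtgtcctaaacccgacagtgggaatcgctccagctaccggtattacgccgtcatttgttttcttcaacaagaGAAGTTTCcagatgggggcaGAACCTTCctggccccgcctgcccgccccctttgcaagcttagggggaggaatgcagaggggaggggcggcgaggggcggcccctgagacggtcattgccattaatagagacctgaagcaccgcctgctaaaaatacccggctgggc
Hspb8: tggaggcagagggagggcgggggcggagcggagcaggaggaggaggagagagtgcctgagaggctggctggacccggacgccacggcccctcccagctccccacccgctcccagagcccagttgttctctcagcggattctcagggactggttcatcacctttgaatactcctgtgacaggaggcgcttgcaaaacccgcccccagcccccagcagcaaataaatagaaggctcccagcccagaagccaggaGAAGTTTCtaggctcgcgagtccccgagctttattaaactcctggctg

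Hspb1 held the core letters at 2 places, bases 134 to 141 and 154 to 161 of its window, and Hspb8 at 1 place, bases 253 to 260, just downstream of its annotated start. The first match of Hspb1 and the match of Hspb8 had the same letters, GAAGTTTC, within a shared run of 10 bases, gagaagtttc. Of 32851 promoter windows in the table, 7.86% held GAANNTTC. The inverse arrangement, TTCNNGAA, was in neither window and in 8.52% of all windows. The AP-1 letters TGANTCA (7.81% of windows) and the TATA letters TATAAA (13.6%) had 0 matches in both genes. The GC box GGGCGG, searched on both strands, had 4 matches in Hspb1 and 3 in Hspb8, and 35.7% of windows held it. GC content was 58.3% in the Hspb1 window and 62.3% in the Hspb8 window. A match of letters is a description and not a measured binding site.

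Cryab was lower in the transfected line on every array. Its log2 ratios were -1.49, -2.55, -1.78 and -1.96 on arrays 1 to 4. All 4 arrays lay below -1, with array 2 the lowest and array 1 the nearest to 0. The mean was -1.95 ± 0.45 (SD, 4 arrays), a 3.85-fold lower level. In the order of all 6327 genes from the lowest mean upwards Cryab stood at place 71, with 1.11% of the genes below it. Its SD was below the median SD over all genes, 0.70, and 24.7% of genes had a smaller one.

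The dye orientation made little difference to Cryab. The mean was -2.02 with the transfected sample in Cy5 and -1.87 with it in Cy3. The distance of 1 orientation from the other was thus smaller than the SD over arrays.

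Both Cryab probes gave nearly the same mean. Probe 1, in row 1867, had -1.72, -2.57, -1.45 and -2.03 on arrays 1 to 4, with a mean of -1.94 ± 0.48. Probe 2, in row 17462, had -1.25, -2.54, -2.12 and -1.89, with a mean of -1.95 ± 0.54. The probe means differed by 0.0075. Probe 2 was the nearer to 0 on array 1 and the further from 0 on array 3, so differences on single arrays partly cancelled in the means. Among 491 genes with a fully measured probe both in the first 6000 rows and below them, the median absolute difference between such means was 0.41, and 1.02% of these genes had a smaller difference than Cryab.

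**Figure D1:**
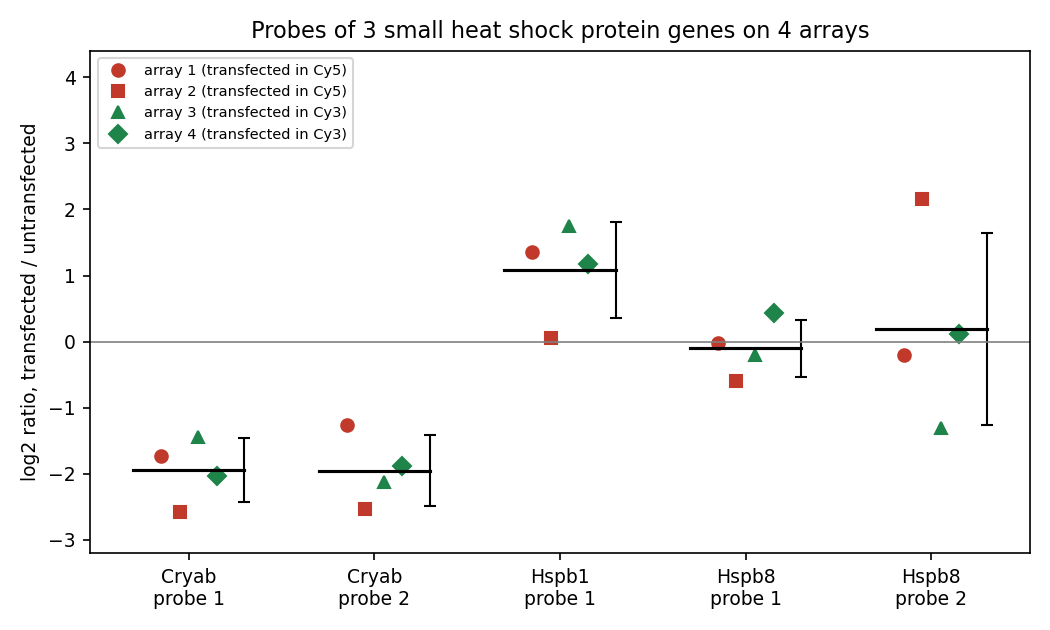
Log2 ratios (y axis, transfected over untransfected, the likely direction) of the 5 probes of Cryab, Hspb1 and Hspb8. Each symbol is an array, red where the transfected sample was in Cy5 and green where it was in Cy3; horizontal lines are means and error bars the SD over 4 arrays. All points of both Cryab probes lie below -1, the Hspb1 points lie at or above 0.056, and the Hspb8 probes straddle 0.

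The value of Cryab probe 2 on arrays 2 to 4 rests on how the rows of the table are read. In the middle of the table (rows 8001 to 18000) the values of arrays 2 to 4 were taken, for all genes, 3 rows above that of array 1. Over the 9998 probes of these rows without the members, which share the 4 arrays and are not replicates, the mean Spearman correlation of array 1 with arrays 2 to 4 was 0.095 at 3 rows. At the other positions from 0 to 6 rows higher it ran from -0.0059 to 0.019. In the probe's own row arrays 2 to 4 held 0.24, 0.82 and 0.57, all above 0, whereas array 1 had -1.25. With arrays 2 to 4 read 3 rows higher they held -2.54, -2.12 and -1.89. Their mean was -2.18 there, against 0.54, -0.021 and 0.54 at 0, 1 and 2 rows, and -1.27, -0.57 and 0.29 at 4, 5 and 6 rows, where array 2 had no value at 4 rows. The mean nearest to array 1 was that at 4 rows, over 2 values. These values describe how much the reading of this 1 probe depends on the offset and are no evidence for it, and probe 1 needs no offset.

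**Figure D2:**
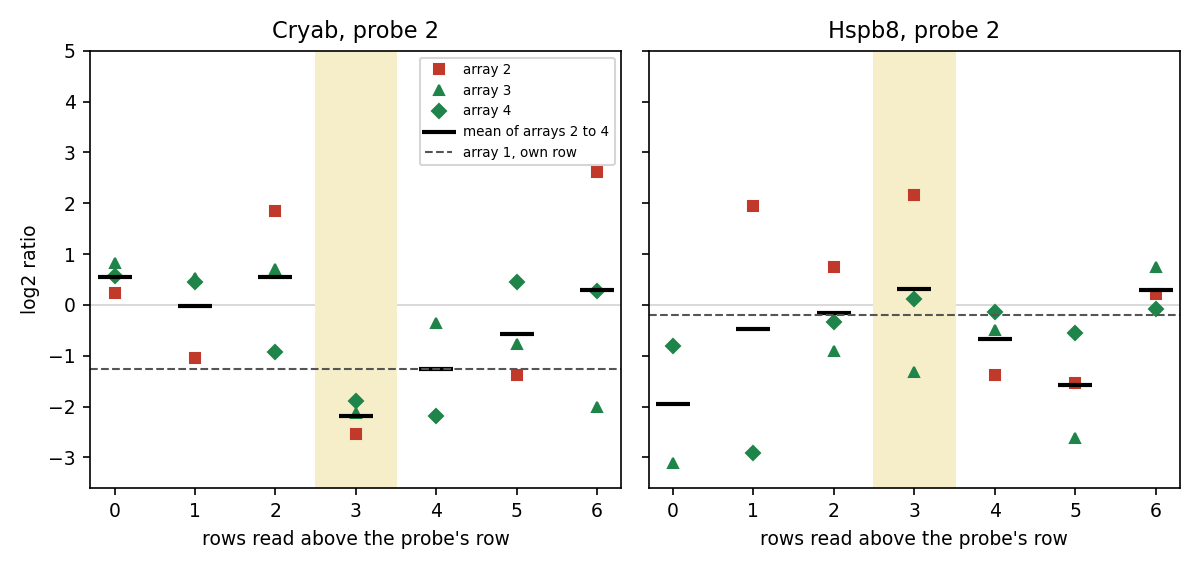
Log2 ratios (y axis) of arrays 2 to 4 when read 0 to 6 rows above the row of Cryab probe 2 (left) and Hspb8 probe 2 (right); the dashed line is array 1 in the probe's own row, black bars are means of arrays 2 to 4, and the shaded position is the one used. For Cryab all 3 arrays lie between -2.54 and -1.89 at 3 rows, while for Hspb8 the arrays are spread at that position from -1.31 to 2.16.

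Hspb1 was higher in the transfected line, with 1 array near 0. Its only probe, in row 4942 where no offset is needed, had log2 ratios of 1.35, 0.056, 1.75 and 1.17 on arrays 1 to 4. Arrays 1, 3 and 4 lay above 1, and array 2 was close to 0. The mean was 1.08 ± 0.72, a 2.11-fold higher level, and 96.8% of all genes had a lower mean. The SD was near the median over all genes.

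The ratio of Hspb1 differed more between dye orientations than that of Cryab. The mean was 0.70 with the transfected sample in Cy5 and 1.46 with it in Cy3. Array 2, the lowest for Hspb1, was also the lowest for Cryab. With both orientations weighed equally, the mean was 1.40 without array 2, 0.76 without array 1 and 0.94 without array 3, so a mean of at least 1 was lost without array 1 or array 3. With only 1 probe, Hspb1 had no comparison between probes, and hybridisation of related sequences to it was not tested.

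Hspb8 did not differ from 0 beyond the spread between arrays. Its log2 ratios were -0.11, 0.78, -0.76 and 0.27 on arrays 1 to 4, with 2 arrays above 0 and 2 below. The mean was 0.045 ± 0.65, and 59.5% of genes had a lower mean. Opposite directions were thus seen for Cryab and Hspb1, whereas Hspb8 had none.

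The Hspb8 probes differed most on array 2. Probe 1, in row 2419, had -0.017, -0.60, -0.21 and 0.44 on arrays 1 to 4, with a mean of -0.098 ± 0.43. Probe 2, in row 17231 and read with the offset, had -0.20, 2.16, -1.31 and 0.11, with a mean of 0.19 ± 1.45. Probe 1 spread less than probe 2, whose values furthest from 0 were on arrays 2 and 3. The probe means differed by 0.29, and 34.4% of the 491 genes had a smaller difference. In the own row of probe 2, arrays 3 and 4 held -3.11 and -0.80, and array 2 had no value. The mean of arrays 2 to 4 was -1.96, -0.48 and -0.17 at 0, 1 and 2 rows higher, 0.32 at the 3 rows used, and -0.67, -1.57 and 0.29 at 4, 5 and 6 rows. The mean nearest to array 1 (-0.20) was that at 2 rows, so no position was singled out for Hspb8.

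A gene was counted as past the fold where its mean log2 ratio was at least 1 away from 0, a 2-fold difference, with the same sign on all 4 arrays. Of the 3 members, 1 was lower past the fold (Cryab), where 4.87% of the 6327 genes were (308), and 1 was higher (Hspb1), where 2.39% were (151). Since these ratios chose the members, the counts say nothing further about them. The array medians over named probes ran from -0.20 to 0.11 and the median of all gene means was -0.082. With each array centred on its median, Cryab had -1.88, Hspb1 1.15 and Hspb8 0.11.

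Differences between members within an array do not depend on centring. Cryab minus Hspb1 was -2.84, -2.61, -3.53 and -3.13 on arrays 1 to 4. The mean difference was -3.03 ± 0.40, so relative to Hspb1 the Cryab ratio was 8.14-fold lower, on 4 of 4 arrays. The SD of this difference was smaller than the SD of either gene, and both genes had their lowest ratio on array 2.

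Hspb8 lay between them with less certainty. Cryab minus Hspb8 was -1.38, -3.33, -1.02 and -2.23, with a mean of -1.99 ± 1.03, below 0 on 4 of 4 arrays. Hspb8 minus Hspb1 was -1.46, 0.72, -2.51 and -0.90, with a mean of -1.03 ± 1.35, below 0 on 3 of 4 arrays. Hspb8 and Hspb1 thus did not differ beyond the spread between arrays, whereas Cryab lay below both on every array.

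The other small heat shock protein genes had no gene past the fold. Of 8 further family genes listed, 7 had a named probe and 6 a value on all 4 arrays. None of the 6 was past the fold in either direction, where 4.87% of all 6327 genes were lower and 2.39% higher. In the same way 0 of 6 had the same sign on all 4 arrays, as 22.6% of all genes had (13% below 0 and 9.58% above it). With only 6 genes and shares of this size, counts of 0 say little about the family. The median of the 6 genes was 0.12, against -0.082 over all genes, and their means ran from -0.058 to 0.55. Only 2 of the 6 had 4 values in rows 1 to 6000. Cryaa, Odf1, Hspb3 and a probe of Hspb7 were read with a row offset on arrays 2 to 4, so their signs rest on it. The 4-row offset used for Hspb3 was not checked.

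Hspb2, which encodes a muscle small heat shock protein that binds myotonic dystrophy kinase, is the neighbour of Cryab in the genome and lies within its annotated span. Hspb2 had -0.041, 1.14 and -1.23 on arrays 1, 3 and 4 and no value on array 2. These values lay on both sides of 0, unlike those of Cryab. Cryaa (alpha-A-crystallin), the lens partner of Cryab, had -0.95, 0.17, 1.16 and -0.35, with a mean of 0.0095 ± 0.89. Its arrays also lay on both sides of 0.

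Hspb6 (Hsp20), a muscle family member, had 0.49, 1.42, -1.5 and 0.50, with a mean of 0.23 ± 1.23. Hspb7, the cardiovascular family member, had -0.29, 0.37, 0.052 and -0.36, with a mean of -0.058 ± 0.33. Neither had a direction. Hspb7 also had 2 probes, and its probe in the first rows had values on only 2 arrays, 1.60 on array 2 and -1.77 on array 3. The other Hspb7 probe, read with the offset, had -0.86 and 1.88 on these arrays and an SD of 1.22. The probes thus opposed each other there, and the small SD of the Hspb7 gene values came from averaging them.

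Hspb3, expressed in muscle, had -0.39, 0.10, 3.34 and -0.87, so that its mean of 0.55 ± 1.90 came from array 3. Hspb11, also known as the ciliary transport protein IFT25, was counted here by its symbol, and an alpha-crystallin domain was not checked. It had 0.29, 0.73, -0.44 and -0.65, with a mean of -0.018 ± 0.64. Its ratios were above 0 with the transfected sample in Cy5 and below 0 with it in Cy3. Odf1, a protein of the sperm tail that belongs to the family, had 0.68, -0.12, 1.24 and 0.20, with a mean of 0.50 ± 0.59.

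**Figure D3:**
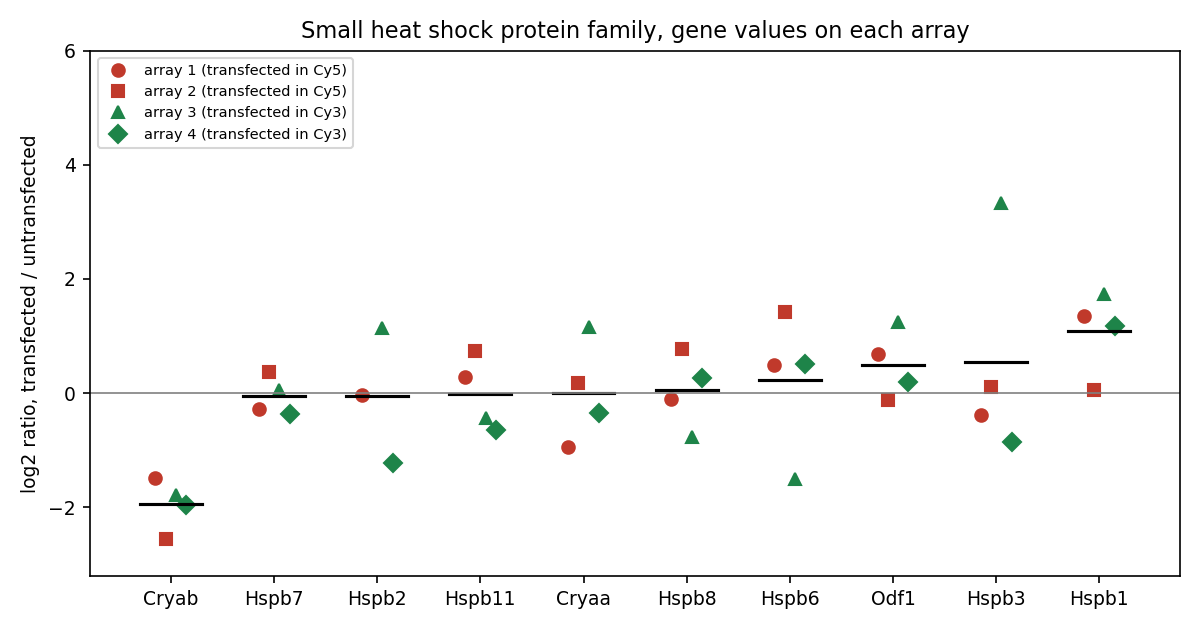
Log2 ratios (y axis, transfected over untransfected, the likely direction) of 10 genes listed as small heat shock proteins. Each array is shown, and genes are ordered by their mean (horizontal line). Colours give the dye of the transfected sample, and Hspb2 has 3 arrays. Cryab, at a mean of -1.95, has the lowest gene value on every array, while neighbours among the other genes overlap. On array 3 Cryab (-1.78) is close to Hspb6 (-1.50), and Cryab probe 1 alone, which needs no offset, had -1.45 there.

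In the order of the means over the 9 family genes with 4 values, Cryab was the lowest and Hspb7 came next. Hspb7 exceeded Cryab by 1.89 ± 0.74, on 4 of 4 arrays, with the 2 opposing Hspb7 probes averaged. The Hspb7 probe in the first rows alone had -1.77 on array 3, close to the Cryab value of -1.78. Every other pair of neighbours in the order, from Hspb7 through Hspb11, Cryaa, Hspb8, Hspb6, Odf1 and Hspb3 to Hspb1, differed by less than the SD of their difference. The step from Hspb3 to Hspb1 was 0.53 ± 1.69. Hspb1 was the only one of these 9 genes above 0 on all 4 arrays, with 0.056 on array 2, and Cryab the only one below 0 on all 4. The members were chosen by these ratios, so their standing apart from the family is no separate support.

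Of 12 listed partners and kinases of the family, 7 had a value on all 4 arrays. Their median was -0.27, and 6 means were below 0, as were 3550 of all 6327 gene means. Of the 7, 1 was lower and 0 were higher past the fold, where 4.87% of all genes were lower and 2.39% higher. The lower one was Ppp2ca, the catalytic subunit of protein phosphatase 2A, with -0.21, -0.77, -4.36 and -1.70 and a mean of -1.76 ± 1.84. Its SD exceeded the size of its mean, and array 3 was far below the others. The highest was Stub1, which encodes the ubiquitin ligase CHIP, at 0.59 ± 0.43.

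Bag3, the partner of Hspb8, had -0.48, -0.51, -0.62 and 0.066, with a mean of -0.39 ± 0.31. Of the kinases upstream of Hspb1, Mapk14 (p38 alpha) had -0.91, 0.29, 0.053 and -0.42, with a mean of -0.25 ± 0.53. Mapkapk2, which phosphorylates Hspb1, had 0.28, 0.58 and 0.57 on arrays 1, 2 and 4 and no value on array 3. Its 3 values were above 0 and below 1.

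The other chaperone lists had 0 genes past the fold over all rows, where 4.87% of all genes were lower and 2.39% higher. Counts of 0 in lists this small say little about them. Among the cytosolic HSP70, HSP110 and HSP90 chaperones and co-chaperones, 11 of 23 listed had a value on all 4 arrays, 0 were past the fold in either direction, and the median was -0.062. The heat-inducible HSP70 gene Hspa1a had 0.86, -0.59, 0.66 and -1.17, with a mean of -0.062 ± 0.98. Its arrays disagreed in sign. The lowest mean was that of Cdc37, an HSP90 co-chaperone that delivers kinases, at -1.56 ± 2.20, and the highest that of Fkbp4, a prolyl isomerase bound to HSP90, at 0.40 ± 0.64.

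The DNAJ co-chaperones, which stimulate HSP70, had 17 of 29 listed genes on all 4 arrays, 0 past the fold and a median of -0.23. Their lowest was Dnajc10, a reductase of the endoplasmic reticulum, with -1.16, -1.08, -0.88 and -0.42 and a mean of -0.89 ± 0.33. It was below 0 on every array. In the first 6000 rows alone Dnajc10 had a mean of -1.05 ± 0.72 and was then past the fold. It was the only 1 of 25 genes of the 7 heat shock and client lists measured there. Among all 2238 genes of these rows, 7.60% were lower and 2.01% higher past the fold. Their highest was Dnajc15, a mitochondrial member, at 1.71 ± 1.60, with -0.25 on array 4.

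The chaperonins and mitochondrial chaperones had 13 of 19 listed genes on all 4 arrays, 0 past the fold and a median of 0.24. Hspe1, the co-chaperonin of mitochondria, was the highest with 1.74, 1.5, 1.35 and -0.21 and a mean of 1.09 ± 0.88. Array 4 differed in sign from the others. Cct5, a subunit of the cytosolic chaperonin, was the lowest at -0.50 ± 0.87. Of the heat shock factor list, 2 of 7 genes had 4 values, Hsbp1 at -0.27 ± 0.99 and Hsf2bp at -0.14 ± 1.0.

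Filament proteins that small heat shock proteins bind had 9 of 16 listed genes on all 4 arrays, with 0 past the fold and a median of 0.23. The highest was Actg1, cytoplasmic gamma actin, at 0.81 ± 0.68, and the lowest Ttn, the giant muscle protein titin, at -0.59 ± 0.58. Over all 7 lists together, without the 3 members, 65 of 114 genes had 4 values, of which 1 was lower and 0 were higher past the fold. Among all 6327 genes, 4.87% were lower and 2.39% higher. Of the 65, 32 had a mean below 0 and 33 above it, against 3550 and 2777 of all 6327 genes. In 10 of the 65 there was 1 sign throughout the arrays, as in 1427 of the 6327 genes (22.6%). The median of the 65 was 0.0024, against -0.082 over all genes. Centring each array on its median left 0 higher and 1 lower in the partner list and 0 of either in the other 6 lists.

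**Figure D4:**
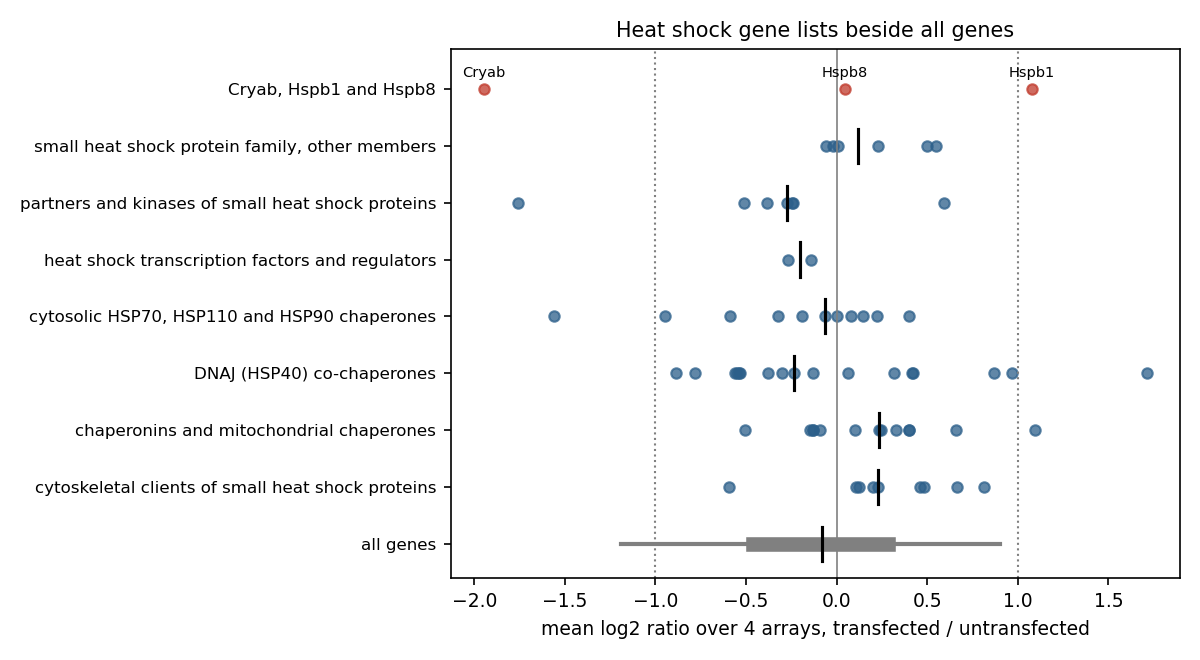
Mean log2 ratios over 4 arrays (x axis, transfected over untransfected, the likely direction) of the genes of each list, 1 point per gene with 4 values; black ticks are list medians, the grey bar for all genes spans their interquartile range with a line from the 5th to the 95th percentile, and dotted lines mark 1 log2 unit. Cryab at -1.95 lies below every gene of the 7 heat shock and client lists, whose medians lie between -0.27 and 0.24.

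Log2 ratios give no level, so the fibroblast identity of the lines could not be checked by markers. Of the fibroblast markers, 6 of 11 had 4 values, with a median of 0.21. Of their means 2 were below 0 and 4 above it, against 3550 and 2777 of all 6327 genes. Of these 6, Col1a2, a chain of type I collagen, was lower past the fold at -3.36 ± 0.69, as were 4.87% of all genes. Of the muscle markers 4 of 13, of the lens markers 2 of 10 and of the epithelial markers 3 of 8 had 4 values, and 0 of these were past the fold. In the first 6000 rows alone the epithelial adhesion gene Epcam had a mean of -1.09 ± 0.70 and was then past the fold, against -0.52 ± 0.33 over all rows. Of the 2238 genes in those rows, 7.60% were lower past the fold. Of the leukocyte markers 3 of 8 had 4 values, of which Lyz2, which encodes lysozyme, was lower past the fold at -1.17 ± 0.70. The lists of lens and muscle, tissues rich in Cryab, had medians of -0.089 and 0.11, and the part of other cells in the ratio of Cryab was not tested.

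The genes with the ratios most like each member were found by the root mean square difference of their 4 log2 ratios, over 6326 other genes. For Cryab these were Serpinf1, which encodes the secreted pigment epithelium-derived factor (0.34), Ero1a, an oxidase of the endoplasmic reticulum (0.34), and Slc44a1, a choline transporter (0.36). Their means were -1.77, -2.05 and -1.69. For Hspb1 they were Slirp, a mitochondrial RNA-binding protein (0.24), Fam98c (0.33) and the ETS transcription factor gene Etv4 (0.34), with means of 0.92, 1.09 and 0.98. For Hspb8 they were Sppl2b (0.099), Coasy (0.12) and Nap1l4 (0.14). Within a difference of 0.5 there were 13 genes for Cryab, 25 for Hspb1 and 418 for Hspb8, so the ratios of Hspb8 were shared by many genes near 0.

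All measured genes were also counted by the heat shock letters of their promoter windows. Of 385 measured genes with GAANNTTC in a window, 4.68% were lower and 3.12% higher past the fold. Of 4749 measured genes with a window but without these letters, 4.86% were lower and 2.27% higher. The medians were -0.092 with the letters and -0.082 without them. Hspb1 and Hspb8, which share the letters GAAGTTTC shown above, had a difference (Hspb8 minus Hspb1) of -1.03 ± 1.35.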

How the data were processed

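The values are log2 ratios of both channels of 4 two-colour arrays, deposited by the authors in 1 table with a column per array. The sources used here do not name the image analysis, the background correction or the normalization, and signal over background is unknown. The number of arrays limits the precision. Per the labels' protocols, cDNA from total RNA was labelled indirectly with Cy3 or Cy5. The table holds 20355 probes. GEO's annotation gave 1 symbol to 14030 and several to 5 of them, which left 6320 without a name here. Through their gene identifiers 13994 of the probes with 1 symbol were found in RefSeq, with 0 symbols changed.

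Rows 1 to 6000 were read as they stand. In rows 8001 to 18000 arrays 2 to 4 were read 3 rows higher, and from row 18301 4 rows higher. Other rows, with 1586 probes of 1 symbol, and values beyond 15 either way were dropped. Probes were averaged per gene on each array. Missing values were not imputed. Means weigh both dye orientations equally. No test of a difference between the lines was run; Dixon's criterion was used only to look for arrays far from the others. The members, lists and rules were chosen with earlier results of these data known. Named genes are the members, all measured family genes, list genes past the fold, marker genes past the fold, the highest and lowest of each list, and 3 nearest genes per member; Bag3, Mapk14, Mapkapk2 and Hspa1a were named in addition for their known roles. Python 3.11.15, numpy 2.4.6, pandas 2.3.3 and matplotlib 3.10.9 were used.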

Additional observations from a re-analysis of the deposited data

Results flagged for a closer look

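The 4 arrays of 38 genes or probes named in the text were checked for 1 array far from the other 3. None had a gap between 1 array and its nearest neighbour above the share of the whole range that is Dixon's critical value for 4 values.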

How the results depend on the processing

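With 4 arrays of 1 RNA pair, no setting covers the spread between cultures. Cryab kept its sign under all 14 alternatives, and its mean was -0.925 with rows as deposited, -0.925 with the offset smaller by 1 row and -1.49 on array 1 alone; in the first 2 of these, probe 2 reads other rows of arrays 2 to 4, and Cryab was no longer past the 2-fold limit. Without any 1 array it ran from -2.21 to -1.68. Hspb1 kept its sign under all 12 alternatives, with 0.76 to 1.40 without any 1 array. Its row has no offset, so the settings that changed the offset left its mean at 1.08, as did keeping all values. With Cryab below 0 and Hspb1 above 0 on all 4 arrays, leaving out arrays could not change either sign. Hspb8 kept its sign under 7 of 14, with -0.64 with rows as deposited and -0.21 to 0.30 without any 1 array. Genes past the fold numbered 607 lower and 371 higher at a 1.5-fold limit, 170 lower and 45 higher in rows 1 to 6000 only (2238 genes), and 451 lower and 231 higher with at least 3 arrays (8131 genes). Leaving out 1 array, which asks for the same sign on 3 arrays only, gave 375 to 541 lower and 181 to 310 higher genes. The lower count moved most without array 1 (541) and the higher count without arrays 1 (234), 3 (227) and 4 (310). Centring the arrays gave 261 lower and 180 higher. The centring and the first rows of the gene lists were added after the data were seen.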

Other observations

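A few heat shock and filament genes outside the rule for named genes were picked after their values were seen, for a small spread between arrays. Dnajc7, a co-chaperone that binds both HSP70 and HSP90, had log2 ratios of 0.83, 0.81, 1.0 and 0.84 on arrays 1 to 4, with a mean of 0.87 ± 0.088. Vim, the intermediate filament protein vimentin of fibroblasts, had 0.42, 0.67, 0.72 and 0.85, with a mean of 0.66 ± 0.18. Both were above 0 on every array and below the 2-fold limit.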
